A study of Mus musculus with 18 samples.

Results

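Interferon-stimulated genes, the genes that cells switch on when an interferon binds its receptor, were followed in mouse hearts 3 days after myocardial infarction. The set is 36 gene symbols listed by name, and all 36 were found among the 25230 symbols of the count table. The mice were male C57BL/6J animals whose left anterior descending coronary artery had been ligated, so every group shares the infarction and none is an uninjured control. Sham-operated mice named in the labels' protocol were not analysed here. From these hearts 3 regions were taken, the infarcted left ventricle (LV), the atria and the non-infarcted LV. Mice had received liraglutide, a peptide agonist of the GLP-1 receptor used in diabetes and obesity, or PBS, the saline vehicle. Its dose and schedule are not stated by the labels. The 6 groups are thus infarcted LV with liraglutide, infarcted LV with PBS, atria with liraglutide, atria with PBS, non-infarcted LV with liraglutide and non-infarcted LV with PBS, with 3 libraries each, labelled as biological replicates. The labels do not say whether the regions of a treatment came from the same hearts.

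Interferons act through a short pathway. Type I interferons bind IFNAR1 and IFNAR2, which activate the kinases JAK1 and TYK2 and lead to a complex with STAT2 and IRF9 that binds the interferon-stimulated response element (ISRE). Interferon gamma binds IFNGR1 and IFNGR2 and acts mainly through the gamma-activated site (GAS) and through IRF1. The induced genes encode sensors of foreign nucleic acid, proteins that block viral RNA, GTPases that attack intracellular microbes, and chemokines that draw T and NK cells. In mouse infarcts, nucleic acid from dying cells is known to start a type I interferon response in infiltrating macrophages through cGAS, STING and IRF3.

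The response element can be read in the promoters. RefSeq windows on GRCm38.p6, from 250 bases before to 50 after the transcription start, were available for 27 of the 36 genes. The core of the ISRE, searched as GAAANNGAA on both strands, was found for 18 of these 27 genes (66.7%), against 2638 of 27025 genes with a window (9.76%). A gene was counted if any of its windows held a match. The GAS, TTCNNNGAA, which reads the same on both strands, was found for 7 of the 27 genes (25.9%), against 9.55% of all genes, and the motifs can overlap. Such a match describes the sequence and does not show binding. The 250 bases upstream of the start are shown for 4 genes. Isg15 (chr4:156200819-156201068, minus strand) and Ifit1 (chr19:34640639-34640888, plus strand) have 3 matches to the ISRE core each, some of them overlapping. Cxcl9 (chr5:92328080-92328329, minus strand) and Cxcl10 (chr5:92348890-92349139, minus strand) are neighbours on the same strand that differed in opposite directions between atria and non-infarcted LV. Each of the 4 stretches is written 5′ to 3′ on the gene's strand, and capitals mark matches to the ISRE core on either strand.
Isg15: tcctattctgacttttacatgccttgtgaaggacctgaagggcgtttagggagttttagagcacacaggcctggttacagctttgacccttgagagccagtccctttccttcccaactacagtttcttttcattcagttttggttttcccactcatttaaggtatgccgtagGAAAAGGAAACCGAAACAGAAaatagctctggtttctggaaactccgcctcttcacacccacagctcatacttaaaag
Ifit1: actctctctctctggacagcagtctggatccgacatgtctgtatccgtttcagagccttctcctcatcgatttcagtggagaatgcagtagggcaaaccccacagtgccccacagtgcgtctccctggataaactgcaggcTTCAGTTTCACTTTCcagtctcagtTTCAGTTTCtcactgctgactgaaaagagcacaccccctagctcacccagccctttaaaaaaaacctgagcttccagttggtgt
Cxcl9: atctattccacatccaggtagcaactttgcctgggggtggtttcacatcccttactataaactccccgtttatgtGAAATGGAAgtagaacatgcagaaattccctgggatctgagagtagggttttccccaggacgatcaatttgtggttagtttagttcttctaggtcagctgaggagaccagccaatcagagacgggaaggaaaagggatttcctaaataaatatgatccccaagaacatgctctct
Cxcl10: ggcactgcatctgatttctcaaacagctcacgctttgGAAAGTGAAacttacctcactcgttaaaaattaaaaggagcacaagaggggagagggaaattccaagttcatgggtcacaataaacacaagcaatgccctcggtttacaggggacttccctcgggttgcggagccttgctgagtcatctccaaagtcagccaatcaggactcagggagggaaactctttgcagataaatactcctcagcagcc
The first bases of the 3 matches in Isg15 lie 78, 72 and 66 bases before the start, so that they overlap. In Ifit1 they lie 109, 103 and 84 bases before it, on the opposite strand, and those at 109 and 103 overlap. Cxcl9 has 1 match, 175 bases before the start, and Cxcl10 has 1 match, 213 bases before it. Irf1 has a GAS, TTCCCCGAA, whose first base lies 90 bases before the start in 1 of its windows.

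Library totals ran from 4280459 to 21853482 counts (median 11586459.5), so that 3 counts equal 0.137 to 0.701 CPM (a library's counts scaled to a common total) in a library. The 36 genes took 0.0343 to 0.111% of the counts of a library, and 31 of them had at least 10 counts in every library. Atrial cardiomyocyte markers summed to 37860 to 49660 CPM in atria with liraglutide and 46210 to 53400 CPM in atria with PBS, against at most 521 CPM in any LV library. Ventricular markers summed to 12840 to 18620 CPM in LV libraries and to 108 to 163 CPM in atria with PBS, but replicate 3 of the atria with liraglutide reached 1680 CPM. Replicate 2 of the atria with PBS held 799 CPM of adipocyte markers, where the lowest library of that group held 10.5 CPM. Results on atria are therefore also given without these 2 libraries.

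Across the 18 libraries, most of the 36 genes were at higher levels in infarcted LV than in the other regions. Their summed level was 728 to 1114 CPM in infarcted LV with liraglutide, 773 to 948 CPM in infarcted LV with PBS, 343 to 571 CPM in atria with liraglutide, 423 to 522 CPM in atria with PBS, 478 to 509 CPM in non-infarcted LV with liraglutide and 435 to 448 CPM in non-infarcted LV with PBS. Every infarcted library thus lay above every atrial and every non-infarcted one.

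**Figure D1:**
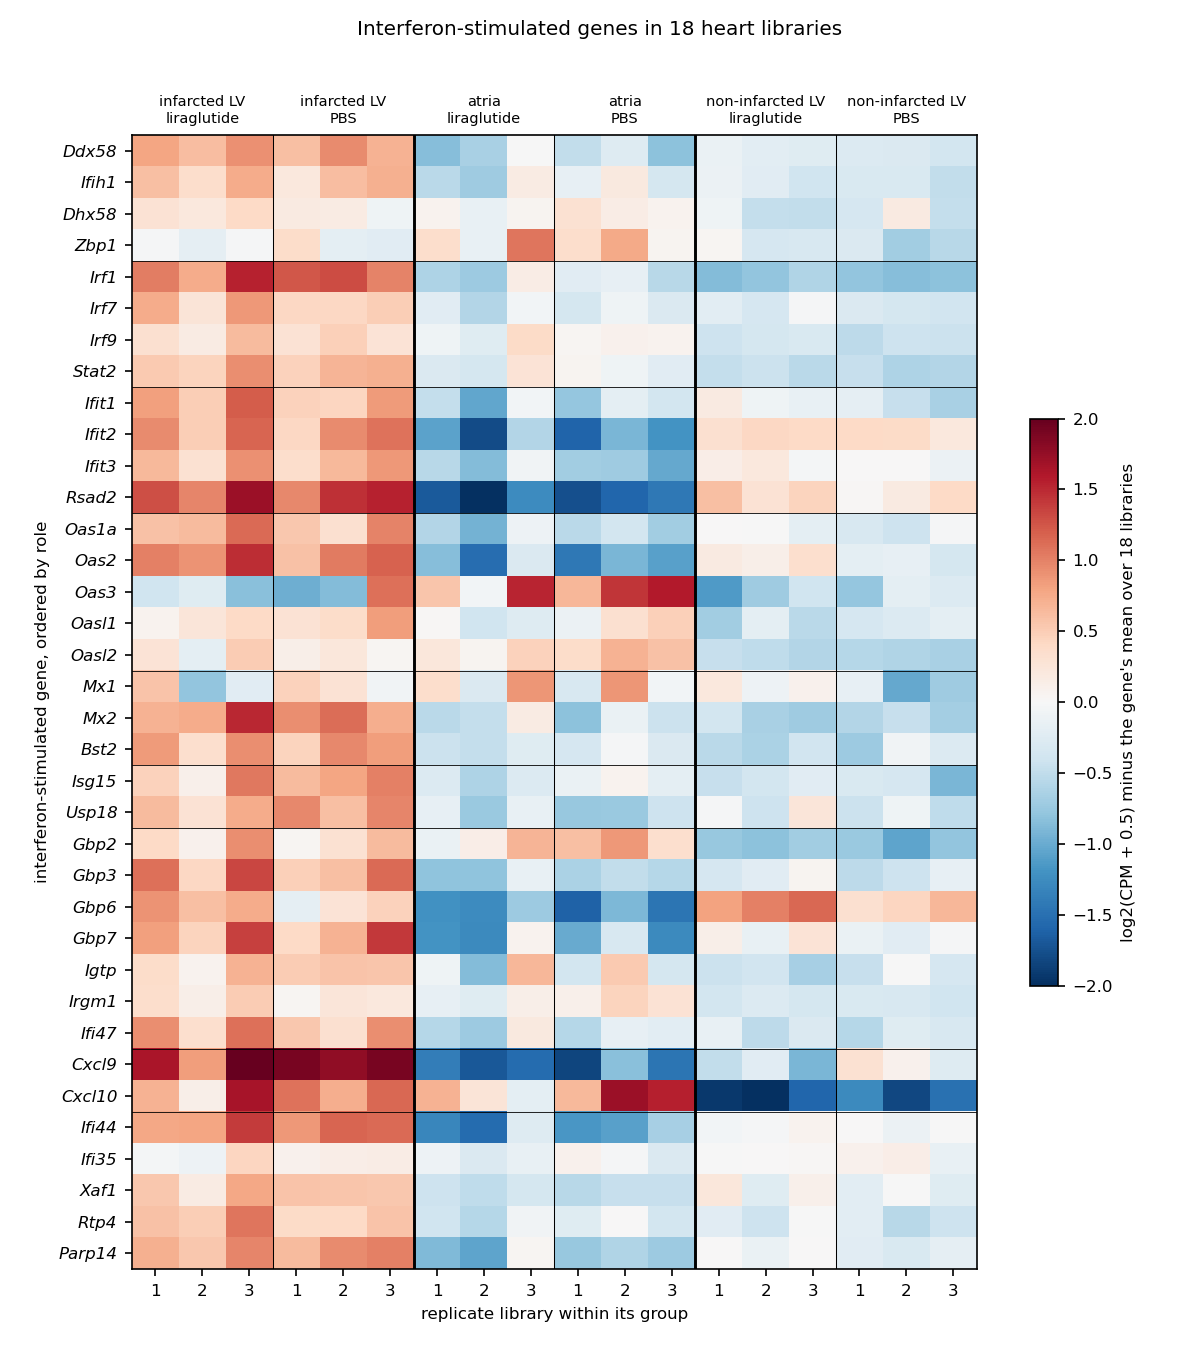
Levels of the 36 genes (rows, by role) in the 18 libraries (columns, by region and treatment), as log2(CPM + 0.5) minus the gene's mean over all libraries, red for above and blue for below that mean, with values past 2 in either direction in the end colour. Most rows are red in the infarcted LV, whose summed levels run from 728 to 1114 CPM, while Ifit2, Rsad2 and Cxcl9 are lowest in the atria and Cxcl10 is lowest in the non-infarcted LV.

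Infarcted LV was compared with non-infarcted LV of the same treatment to ask how the injured muscle differs from the muscle that kept its blood supply. With liraglutide 31 of the 34 genes tested were higher in infarcted LV and 1, Gbp6, was lower (edgeR quasi-likelihood test, adjusted p under 0.05), where 27.3% of all 13022 genes tested were called higher and 22.4% lower. With PBS 30 of 34 were higher and 0 lower, where 25.7% of all 12831 genes were called higher and 21.7% lower. The median log2 fold change of the genes tested was 0.88 with liraglutide and 0.94 with PBS, against -0.022 and -0.021 over all genes. The same 30 genes were called higher under both treatments, and Dhx58 was called with liraglutide alone, a difference that did not pass the test of the difference itself. Zbp1 and Ifi35 were called under neither, and Mx1 and Oas3 were too low to be tested. In bulk tissue, fewer cells of a type and less RNA per cell cannot be told apart. A difference given with its SE and no other unit is a log2 fold change.

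**Figure D2:**
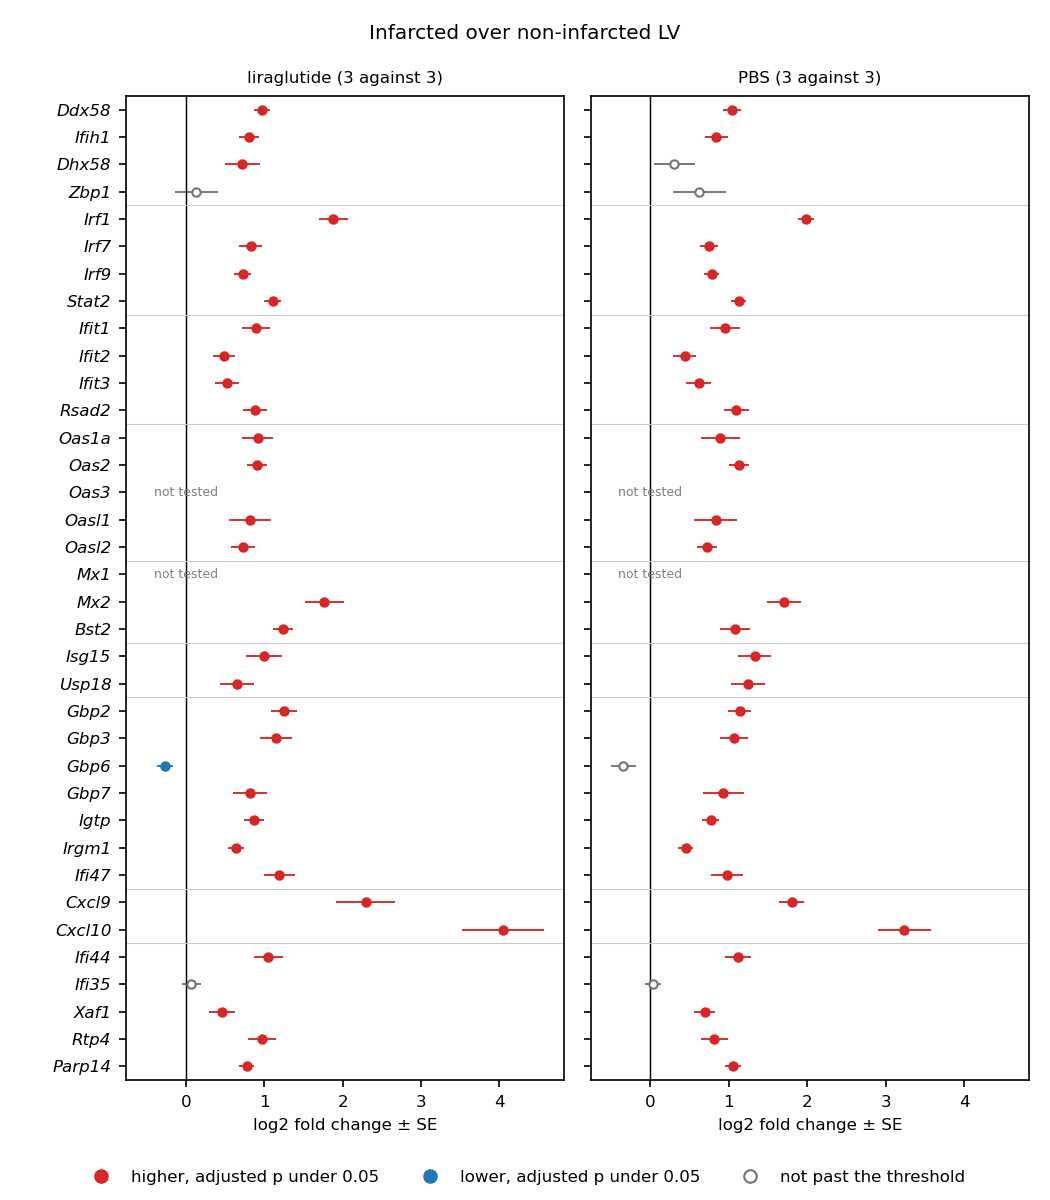
Log2 fold change of infarcted over non-infarcted LV for each gene, with liraglutide on the left and PBS on the right. Points are edgeR estimates from 3 against 3 libraries, bars are 1 standard error, and filled points pass an adjusted p of 0.05, which 31 genes did upward with liraglutide and 30 with PBS.

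The chemokines Cxcl9 and Cxcl10, which attract T and NK cells through the receptor CXCR3, were both higher, and Cxcl10 had the largest log2 fold change of the genes tested. Cxcl10 had 3.96, 2.50 and 8.16 CPM in infarcted LV with liraglutide, against 0.228, 0.191 and 0.417 CPM in non-infarcted LV with liraglutide. With PBS its levels were 5.38, 4.08 and 5.61 CPM in infarcted LV and 0.646, 0.282 and 0.479 CPM in non-infarcted LV. The groups did not overlap, and Cxcl10 was 16.5-fold higher with liraglutide (log2 4.05, SE 0.53, adjusted p = 5.49e-05) and 9.43-fold higher with PBS (log2 3.24, SE 0.34, adjusted p = 2.13e-06). The non-infarcted values rest on 3, 3 and 5 counts with liraglutide and 11, 3 and 4 counts with PBS. Cxcl9 had 14.7, 8.23 and 22.4 CPM in infarcted LV with liraglutide, against 2.96, 3.69 and 2.08 CPM in non-infarcted LV. With PBS it had 17.6, 16.1 and 17.8 CPM in infarcted LV, against 5.52, 4.70 and 3.60 CPM in non-infarcted LV. It was higher in every infarcted library, with a log2 fold change of 2.29 (SE 0.38, adjusted p = 0.00164) with liraglutide and 1.80 (SE 0.16, adjusted p = 3.98e-07) with PBS.

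All 4 transcription factors were higher in infarcted LV under both treatments. Irf1, the main regulator of interferon gamma responses, had 81.9, 67.0 and 117 CPM in infarcted LV with liraglutide, against 21.6, 22.8 and 26.3 CPM in non-infarcted LV with liraglutide. With PBS, Irf1 stood at 94.7, 99.2 and 80.4 CPM in infarcted LV and at 22.8, 22.0 and 22.4 CPM in non-infarcted LV. This was 3.68-fold with liraglutide (log2 1.88, SE 0.19, adjusted p = 6.20e-05) and 3.96-fold with PBS (log2 1.98, SE 0.097, adjusted p = 2.94e-09). Stat2, which carries the type I signal to the nucleus, had 63.3, 59.9 and 84.5 CPM in infarcted LV with liraglutide, against 31.6, 32.5 and 30.2 CPM in non-infarcted LV, and 61.1, 70.6 and 72.7 CPM in infarcted LV with PBS, against 31.9, 28.5 and 29.2 CPM. Its log2 fold change was 1.11 (SE 0.11, adjusted p = 1.04e-06) with liraglutide and 1.12 (SE 0.093, adjusted p = 1.93e-07) with PBS. Irf7, which amplifies type I interferon production, had 23.4, 16.6 and 25.6 CPM in infarcted LV with liraglutide, against 11.9, 10.8 and 13.5 CPM in non-infarcted LV. Its PBS levels were 18.4, 18.6 and 19.6 CPM in infarcted LV, against 11.2, 10.7 and 10.4 CPM in non-infarcted LV. The groups were separate, with log2 fold changes of 0.83 (SE 0.15) with liraglutide and 0.75 (SE 0.12) with PBS. Irf9, the DNA-binding partner of STAT2, was called as well, at 0.73 (SE 0.11) with liraglutide and 0.78 (SE 0.099) with PBS.

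The IFIT genes and Rsad2 were higher in infarcted LV as well. Rsad2, which encodes viperin, an enzyme that makes a chain-terminating nucleotide, had 40.5, 32.5 and 54.2 CPM in infarcted LV with liraglutide, against 25.1, 20.1 and 22.3 CPM in non-infarcted LV. Under PBS, Rsad2 had 32.2, 45.7 and 48.1 CPM in infarcted LV, against 16.6, 18.4 and 21.6 CPM in non-infarcted LV. No infarcted library overlapped a non-infarcted one, and the log2 fold change was 0.88 (SE 0.15, adjusted p = 0.000402) with liraglutide and 1.09 (SE 0.16, adjusted p = 0.000200) with PBS. Ifit1, whose protein binds RNA with a foreign cap, had 10.8, 8.50 and 14.2 CPM in infarcted LV with liraglutide, against 6.75, 5.54 and 5.25 CPM in non-infarcted LV, and 8.27, 8.08 and 10.98 CPM in infarcted LV with PBS, against 5.17, 4.14 and 3.60 CPM. The log2 fold change of Ifit1 was 0.89 (SE 0.18) with liraglutide and 0.95 (SE 0.19) with PBS. Ifit3, a binding partner of the other IFIT proteins, had 11.8, 9.21 and 14.4 CPM in infarcted LV with liraglutide, against 8.12, 8.60 and 7.17 CPM in non-infarcted LV, and 9.57, 11.9 and 13.8 CPM in infarcted LV with PBS, against 7.41, 7.43 and 6.71 CPM. Its log2 fold change was 0.52 (SE 0.16) with liraglutide and 0.62 (SE 0.16) with PBS, and Ifit2 showed the smallest called rise of the 4, 0.49 (SE 0.14) and 0.44 (SE 0.15) in that order of treatment. Ifit3 shares 51.2% of its transcript's 50-base words with Ifit3b, so reads of this pair may be split between them.

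Genes of the OAS family, which includes the oligoadenylate synthetases that make the messenger activating RNase L, were higher where they could be tested. Oas2 had 57.7, 53.0 and 79.6 CPM in infarcted LV with liraglutide, against 32.3, 30.9 and 35.9 CPM in non-infarcted LV. With PBS the levels of Oas2 were 42.8, 58.9 and 65.0 CPM in infarcted LV, against 24.7, 25.2 and 22.1 CPM in non-infarcted LV. It was 1.88-fold higher with liraglutide (log2 0.91, SE 0.13, adjusted p = 5.69e-05) and 2.19-fold higher with PBS (log2 1.13, SE 0.13, adjusted p = 8.16e-06). All 4 tested members of the family were called under both treatments, with Oas1a at 0.92 and 0.89, Oasl1 at 0.82 and 0.83 and Oasl2 at 0.73 and 0.72, liraglutide before PBS. Oas1a shares 57.6% of its 50-base words with Oas1g. Oas3 was low in every LV group, at 0.829, 0.984 and 0.487 CPM in infarcted LV with liraglutide and 0.303, 0.573 and 0.834 CPM in non-infarcted LV with liraglutide. In PBS libraries it was at 0.399, 0.464 and 3.27 CPM in infarcted LV and 0.529, 1.03 and 0.959 CPM in non-infarcted LV. Replicate 3 of the infarcted LV with PBS stood apart from the other LV libraries in this gene and, with 4280459 counts, was also the shallowest of the series.

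Bst2 encodes tetherin, which holds budding virus at the cell surface. It had 45.2, 31.6 and 47.7 CPM in infarcted LV with liraglutide, against 17.0, 15.9 and 18.9 CPM in non-infarcted LV, and 33.9, 48.7 and 44.9 CPM in infarcted LV with PBS, against 14.8, 23.7 and 20.5 CPM. The log2 fold change of Bst2 was 1.24 (SE 0.13, adjusted p = 3.35e-06) with liraglutide and 1.08 (SE 0.19, adjusted p = 0.00171) with PBS. Mx1, a dynamin-like GTPase that C57BL/6 mice are known to carry in a defective form, had 1.01, 0.0894 and 0.365 CPM in infarcted LV with liraglutide and 0.683, 0.446 and 0.584 CPM in non-infarcted LV with liraglutide. Its PBS levels were 0.897, 0.743 and 0.467 CPM in infarcted LV and 0.411, 0 and 0.120 CPM in non-infarcted LV, the 0 meaning below the floor of 0.282 CPM in that library. These Mx1 values rest on 0 to 11 counts a library, the gene was too low to be tested, and no fold is given. Mx2, which the annotation lists as a polymorphic pseudogene, was higher in infarcted LV at 1.77 (SE 0.25) with liraglutide and 1.70 (SE 0.22) with PBS.

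Isg15 encodes a ubiquitin-like protein and Usp18 the protease that removes it and restrains the type I receptor. Isg15 had 6.08, 4.65 and 9.38 CPM in infarcted LV with liraglutide, against 2.96, 3.19 and 3.59 CPM in non-infarcted LV, and 6.88, 7.80 and 9.11 CPM in infarcted LV with PBS, against 3.35, 3.29 and 2.04 CPM. Usp18 had 6.17, 4.74 and 6.70 CPM in infarcted LV with liraglutide, against 3.72, 2.74 and 4.59 CPM in non-infarcted LV, and 7.87, 6.03 and 7.94 CPM in infarcted LV with PBS, against 2.703, 3.57 and 2.52 CPM. Both were separate between the regions in each treatment. The log2 fold change of Isg15 was 0.996 (SE 0.23, adjusted p = 0.00239) with liraglutide and 1.33 (SE 0.21, adjusted p = 0.000111) with PBS. That of Usp18 was 0.66 (SE 0.22, adjusted p = 0.0196) with liraglutide and 1.24 (SE 0.21, adjusted p = 0.000235) with PBS.

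Of the 7 interferon-gamma GTPases, which act on membranes around intracellular microbes, 6 were higher in infarcted LV under both treatments. Gbp2 had 41.7, 33.5 and 60.0 CPM in infarcted LV with liraglutide, against 18.4, 17.6 and 19.3 CPM in non-infarcted LV, and 32.1, 38.9 and 48.8 CPM in infarcted LV with PBS, against 18.4, 14.8 and 17.9 CPM. Igtp had 34.7, 28.0 and 43.5 CPM in infarcted LV with liraglutide, against 19.7, 20.4 and 16.6 CPM in non-infarcted LV, and 38.4, 39.7 and 39.5 CPM in infarcted LV with PBS, against 19.2, 26.7 and 21.1 CPM. The groups of both genes were separate, at 1.25 (SE 0.17) and 1.14 (SE 0.15) for Gbp2 and at 0.87 (SE 0.13) and 0.77 (SE 0.11) for Igtp, as log2 fold changes with liraglutide and with PBS. Gbp3, Gbp7, Irgm1 and Ifi47 were called between 0.45 and 1.19 on that scale. Gbp6 went the other way, with 58.1, 46.7 and 51.6 CPM in infarcted LV with liraglutide, against 54.2, 62.7 and 68.8 CPM in non-infarcted LV, and 27.2, 37.1 and 42.5 CPM in infarcted LV with PBS, against 38.6, 41.5 and 48.8 CPM. Its ranges overlapped under both treatments, and its log2 fold change was -0.27 (SE 0.10, adjusted p = 0.0394) with liraglutide and -0.35 (SE 0.16, adjusted p = 0.0996) with PBS. With the replicate number as a block, Gbp6 passed with PBS also, so that 30 genes were higher and 1 lower there. Gbp6 shares 51.5% of its 50-base words with the gene model Gm43302 and 43.8% with Gbp10.

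Of the sensors, Ddx58 (RIG-I) was higher at 0.97 (SE 0.10, adjusted p = 1.51e-06) with liraglutide and 1.04 (SE 0.11, adjusted p = 2.59e-06) with PBS, and Ifih1 (MDA5) at 0.81 (SE 0.13) and 0.84 (SE 0.15). Dhx58 (LGP2) had a log2 fold change of 0.72 (SE 0.23, adjusted p = 0.0150) with liraglutide and 0.30 (SE 0.26, adjusted p = 0.357) with PBS. Zbp1, a sensor of left-handed nucleic acid that can start cell death, had 1.94, 1.70 and 1.95 CPM in infarcted LV with liraglutide and 2.05, 1.47 and 1.501 CPM in non-infarcted LV with liraglutide. With PBS, Zbp1 had 2.69, 1.67 and 1.64 CPM in infarcted LV and 1.53, 1.03 and 1.20 CPM in non-infarcted LV, which did not pass the test (adjusted p = 0.144). Among the remaining genes Ifi44, Xaf1, Rtp4 and the ADP-ribosyltransferase Parp14 were called under both treatments, Parp14 at 0.78 (SE 0.098, adjusted p = 1.15e-05) with liraglutide and 1.06 (SE 0.10, adjusted p = 8.99e-07) with PBS. Ifi35 was at 18.9 to 27.3 CPM in infarcted LV with liraglutide, against 20.2 to 20.5 CPM in non-infarcted LV, and at 21.5 to 22.4 CPM in infarcted LV with PBS, against 18.1 to 22.3 CPM. Its adjusted p was 0.659 with liraglutide and 0.812 with PBS.

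Some of these calls depended on single libraries. With PBS, Ifit2 was lost without replicate 2 or 3 of the infarcted or 1 or 2 of the non-infarcted LV (log2 fold change 0.34 to 0.46, adjusted p 0.0535 to 0.124), Gbp7 without infarcted replicate 2 or any non-infarcted replicate (adjusted p 0.0503 to 0.104), and Oasl1 without infarcted replicate 3 or non-infarcted replicate 1 or 2 (adjusted p 0.0558 to 0.0751). With liraglutide, Gbp6 lost its call without infarcted replicate 2 or 3 or non-infarcted replicate 2 or 3 (log2 fold change -0.27 to -0.19, adjusted p 0.0924 to 0.169), and Oasl1 without the same 2 infarcted or non-infarcted replicate 1 or 3 (adjusted p 0.0528 to 0.0832). Xaf1 was lost without infarcted replicate 1 or 3 or non-infarcted replicate 2 (adjusted p 0.057 to 0.148), Usp18 without infarcted replicate 3 or non-infarcted replicate 2 (0.0624 and 0.107), and Dhx58 without non-infarcted replicate 2 (0.0602). Ifit2 (0.0501) and Ifit3 (0.066) were lost without infarcted replicate 3, and Gbp7 (0.055) without infarcted replicate 1. Every such log2 fold change kept its sign.

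Markers of several cell types differed between the same regions. Among all genes, 27.3% were called higher and 22.4% lower with liraglutide, and 25.7% and 21.7% with PBS. Endothelial markers summed to 1801 to 2220 CPM in infarcted LV with liraglutide, 1974 to 2152 CPM in infarcted LV with PBS, 981 to 1011 CPM in non-infarcted LV with liraglutide and 973 to 1021 CPM in non-infarcted LV with PBS, and 8 of 8 were called higher under both treatments. Fibroblast markers were called higher in 7 of 7 under both, at 1491 to 1831 CPM with liraglutide and 1563 to 1839 CPM with PBS in infarcted LV, against 666 to 804 CPM and 643 to 798 CPM in non-infarcted LV. Recruited monocyte and macrophage markers summed to 1293 to 1449 CPM in infarcted LV with liraglutide and 1398 to 1523 CPM with PBS, against 232 to 291 CPM and 272 to 347 CPM in non-infarcted LV, with 8 of 8 tested called higher with liraglutide and 4 of 8 with PBS. Resident macrophage markers were called higher in 6 of 8 with liraglutide and 7 of 8 with PBS, and pan-leukocyte markers in 5 of 5 and 3 of 5. Cardiomyocyte markers summed to 50080 to 61780 CPM in infarcted LV with liraglutide and 54580 to 59850 CPM with PBS, against 73080 to 75510 CPM and 70140 to 77050 CPM in non-infarcted LV, and 4 and 5 of 5 were called lower. T and NK cell markers stayed between 3.79 and 5.61 CPM in infarcted LV and between 1.59 and 2.92 CPM in non-infarcted LV, and the 1 marker high enough to be tested was called higher under both treatments. No listed marker of these lists was at 0 throughout a group. The part of cell makeup in the differences of interferon-stimulated genes was not tested.

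Levels can be set beside each other only per length, here as mean CPM per kilobase of annotated exon. On that scale Bst2 was the highest of the 36 genes in all 6 groups, at 46.0 in infarcted LV with liraglutide, 47.1 in infarcted LV with PBS, 21 in atria with liraglutide, 23.7 in atria with PBS, 19.1 in non-infarcted LV with liraglutide and 21.8 in non-infarcted LV with PBS. Irf1 followed in infarcted LV at 22.3 with liraglutide and 23.0 with PBS, and it reached 5.93 and 5.64 in non-infarcted LV. Cxcl10 was among the lowest in non-infarcted LV, at 0.124 with liraglutide and 0.208 with PBS, and stood at 2.16 and 2.23 in infarcted LV. Oas3 was at most 0.195 CPM per kilobase in any LV group, and Mx1 at most 0.220 in any of the 6 groups.

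Atria were compared with non-infarcted LV, both away from the infarct. Here the called genes went both ways. With liraglutide 6 of the 35 genes tested were higher in atria and 8 lower, where 24.6% of all 13431 genes were called higher and 22.9% lower. With PBS 9 of 35 were higher and 10 lower, where 26.3% of all 13250 genes were called higher and 25.6% lower. The genes' own shares were thus 17.1% higher and 22.9% lower with liraglutide and 25.7% higher and 28.6% lower with PBS, close to or below those of all genes. The median log2 fold change was -0.092 with liraglutide and -0.019 with PBS, against 0.0082 and 0.0068 over all genes. Higher under both treatments were Irf9, Stat2, Oas3, Oasl2, Gbp2 and Cxcl10, and lower under both were Ifit2, Ifit3, Rsad2, Oas2, Gbp6, Cxcl9, Ifi44 and Xaf1. Of the 6 genes higher in both, 6 had a promoter window and 4 of these held an ISRE core. Of the 8 lower in both, 6 had a window and 4 held one, so the motif was found among genes of both directions.

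**Figure D3:**
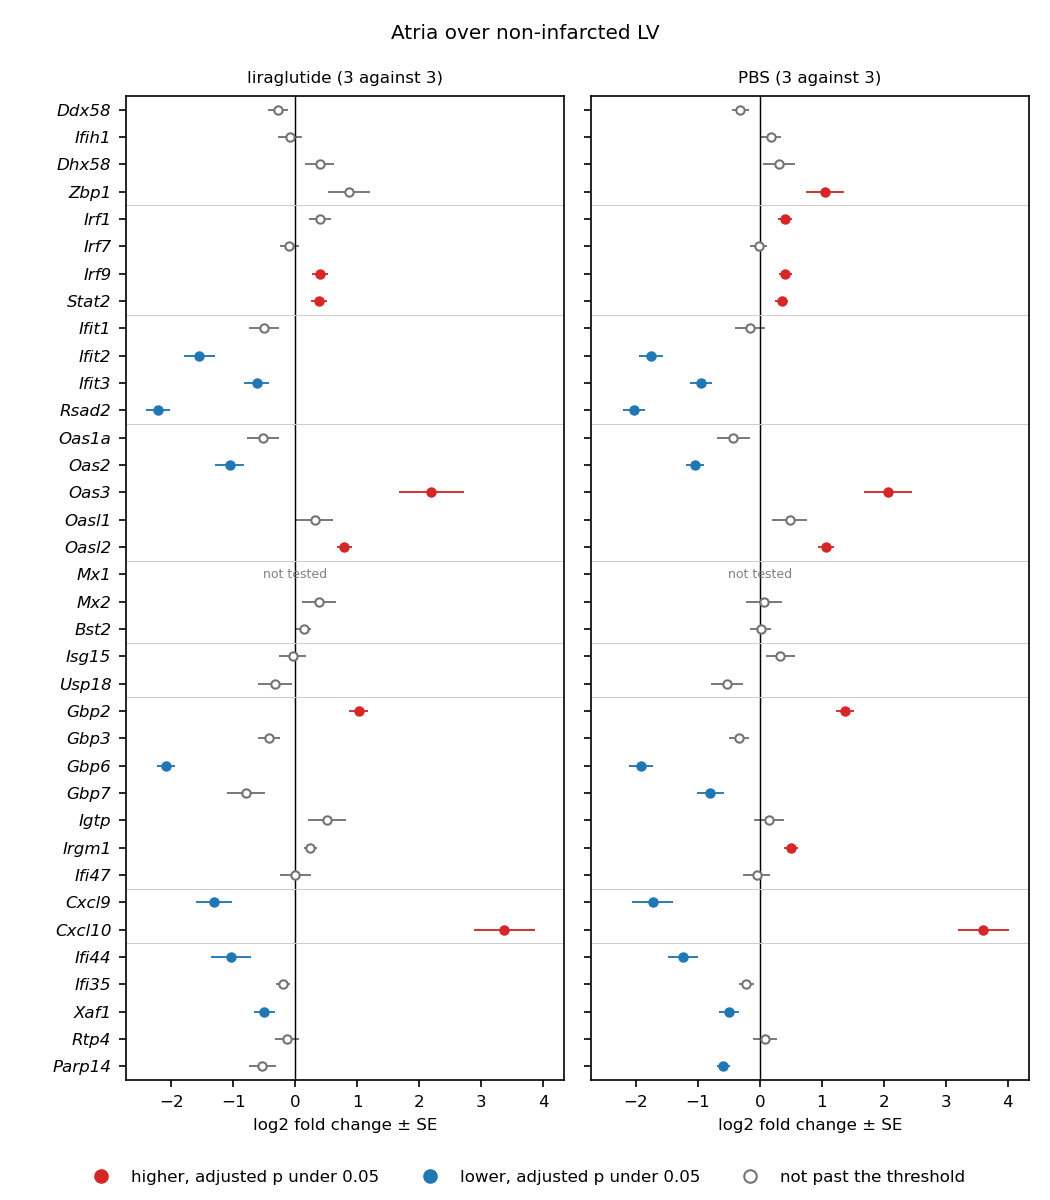
Log2 fold change of atria over non-infarcted LV for each gene, with liraglutide on the left and PBS on the right, as edgeR estimates with 1 standard error from 3 against 3 libraries. Filled points pass an adjusted p of 0.05, and they lie on both sides of 0, with 6 higher and 8 lower with liraglutide and 9 higher and 10 lower with PBS.

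In 2 of the 5 pairs of listed genes with no protein-coding gene lying wholly between them, the neighbours were called in opposite directions. The share of such pairs among all neighbouring genes was not computed. In these comparisons 22.9 to 26.3% of all genes were called in each direction, so the count is not read as a trait of these genes. In the other pairs, Ifit2 and Ifit3 were both lower, and Gbp7 with Gbp3 and Oasl2 with Oasl1 had 1 member that was called under neither treatment. Cxcl9 and Cxcl10 lie 18559 bases apart on chromosome 5 with no protein-coding gene wholly between them. Cxcl9 had 1.37, 1.004 and 1.19 CPM in atria with liraglutide, against 2.96, 3.69 and 2.08 CPM in non-infarcted LV, and 0.866, 2.23 and 1.28 CPM in atria with PBS, against 5.52, 4.70 and 3.60 CPM. Cxcl10 had 3.97, 2.81 and 1.92 CPM in atria with liraglutide, against 0.228, 0.191 and 0.417 CPM in non-infarcted LV, and 3.86, 8.60 and 7.66 CPM in atria with PBS, against 0.646, 0.282 and 0.479 CPM. Within each treatment all atrial libraries were thus below the non-infarcted ones for Cxcl9 and above them for Cxcl10. Cxcl9 was 2.48-fold lower with liraglutide (log2 -1.31, SE 0.30, adjusted p = 0.00505) and 3.32-fold lower with PBS (log2 -1.73, SE 0.33, adjusted p = 0.00106). Cxcl10 was 10.4-fold higher with liraglutide (log2 3.38, SE 0.49, adjusted p = 0.000359) and 12.2-fold higher with PBS (log2 3.61, SE 0.41, adjusted p = 3.18e-05). Exons of Cxcl10 overlap those of Art3 on the other strand over 133 bases, 5.9% of Cxcl10's exon length, and the strand setting of the counting is not given. Art3 had 484 to 589 CPM in atria with liraglutide and 509 to 580 CPM in atria with PBS, against 421 to 454 CPM and 399 to 420 CPM in non-infarcted LV, while in infarcted LV, where Cxcl10 was also high, it had 287 to 351 CPM and 296 to 310 CPM. The part of Art3 in the Cxcl10 counts was not tested.

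**Figure D4:**
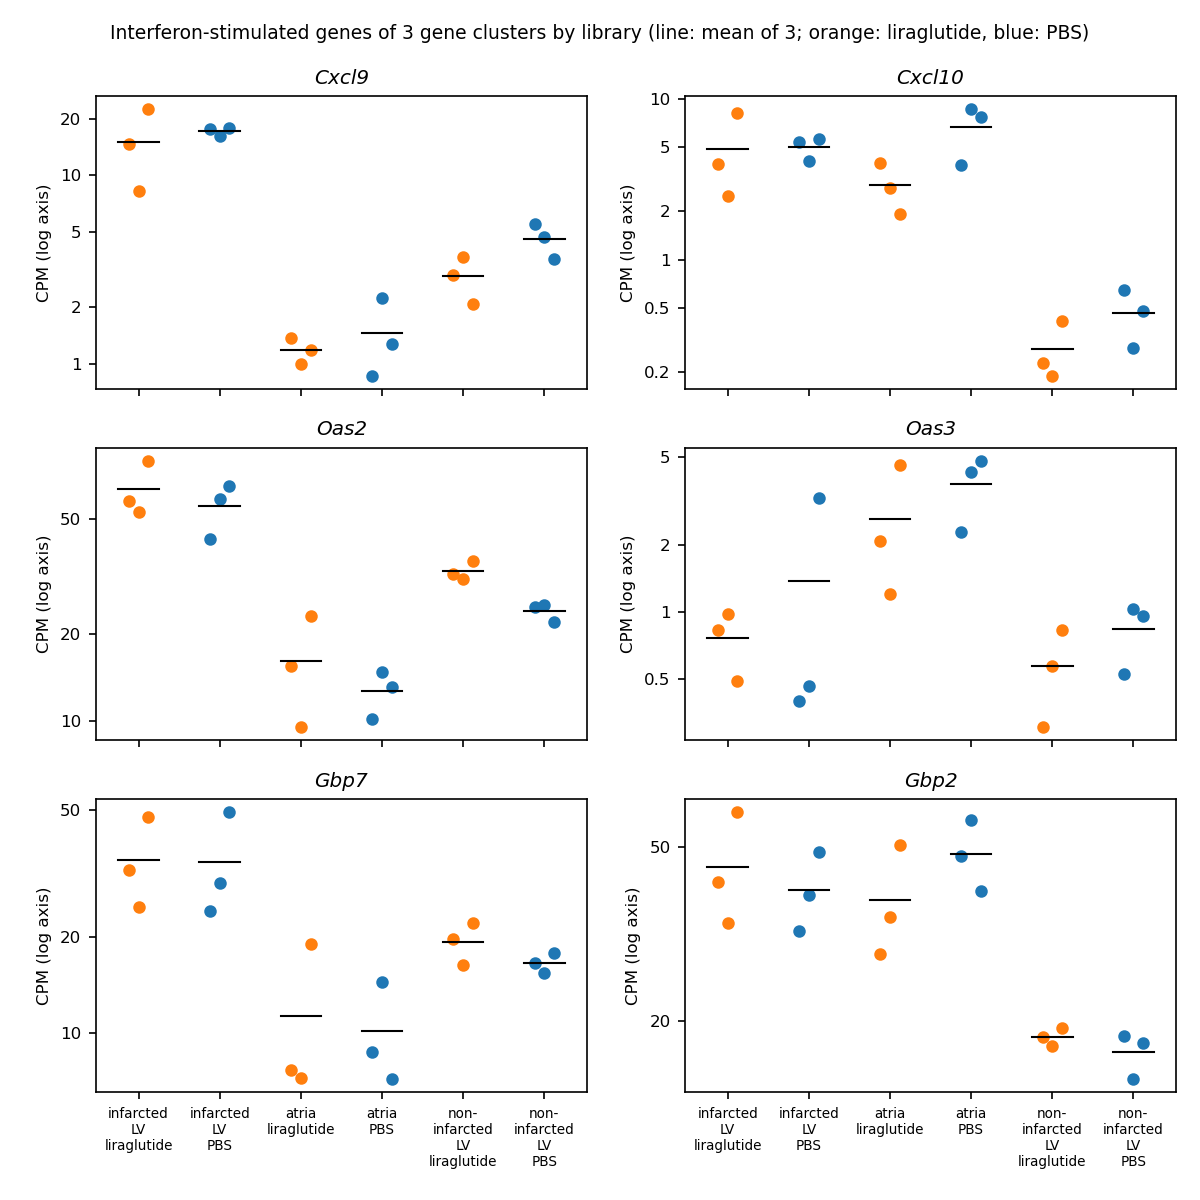
CPM (log axis) of 2 pairs of adjacent genes (Cxcl9 and Cxcl10, Oas2 and Oas3) and of Gbp7 and Gbp2, which share a cluster but are not adjacent, in each library by group, with a line at the mean of 3 libraries. In the atria Cxcl9, Oas2 and Gbp7 (left) sit below most non-infarcted LV libraries, Cxcl9 between 0.866 and 2.23 CPM, with 1 exception. Gbp7 in replicate 3 of the atria with liraglutide, at 18.9 CPM, lies within the 15.4 to 22.0 CPM of non-infarcted LV and above most of its libraries. Cxcl10, Oas3 and Gbp2 (right) sit above all non-infarcted LV libraries, Cxcl10 between 1.92 and 8.60 CPM.

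Oas2 and Oas3 lie 3245 bases apart on chromosome 5, also with no protein-coding gene wholly between them. Oas2 had 15.5, 9.50 and 23.1 CPM in atria with liraglutide, against 32.3, 30.9 and 35.9 CPM in non-infarcted LV, and 10.2, 14.8 and 13.1 CPM in atria with PBS, against 24.7, 25.2 and 22.1 CPM. Oas3 had 2.09, 1.20 and 4.58 CPM in atria with liraglutide, against 0.303, 0.573 and 0.834 CPM in non-infarcted LV, and 2.28, 4.25 and 4.79 CPM in atria with PBS, against 0.529, 1.03 and 0.959 CPM. None of these groups overlapped. Oas2 was lower in atria at -1.05 (SE 0.24, adjusted p = 0.00637) with liraglutide and -1.05 (SE 0.14, adjusted p = 0.000103) with PBS. Oas3 was higher at 2.20 (SE 0.52, adjusted p = 0.00683) with liraglutide and 2.07 (SE 0.39, adjusted p = 0.00107) with PBS. On chromosome 3, Gbp2 had 28.4, 34.6 and 50.6 CPM in atria with liraglutide, against 18.4, 17.6 and 19.3 CPM in non-infarcted LV, and 47.7, 57.6 and 39.6 CPM in atria with PBS, against 18.4, 14.8 and 17.9 CPM. It was 2.04-fold higher with liraglutide (log2 1.03, SE 0.15, adjusted p = 0.000479) and 2.60-fold higher with PBS (log2 1.38, SE 0.14, adjusted p = 1.57e-05). Gbp7 lies in the same cluster but is separated from Gbp2 by Gbp3 and 1 more protein-coding gene. Gbp7 was lower with PBS (log2 -0.80, SE 0.21, adjusted p = 0.0102) and did not pass with liraglutide (-0.79, SE 0.31, adjusted p = 0.0702).

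Of the IFIT genes and Rsad2, 3 of the 4 were lower in atria under both treatments. Rsad2 had 4.76, 3.21 and 6.54 CPM in atria with liraglutide, against 25.1, 20.1 and 22.3 CPM in non-infarcted LV, and 4.49, 5.10 and 5.75 CPM in atria with PBS, against 16.6, 18.4 and 21.6 CPM. It was 4.63-fold lower with liraglutide (log2 -2.21, SE 0.20, adjusted p = 1.99e-05) and 4.08-fold lower with PBS (log2 -2.03, SE 0.17, adjusted p = 3.91e-06). Ifit2 followed at -1.54 (SE 0.24) with liraglutide and -1.76 (SE 0.19) with PBS. Ifit3 had 4.84, 3.81 and 6.96 CPM in atria with liraglutide, against 8.12, 8.60 and 7.17 CPM in non-infarcted LV, and 4.33, 4.299 and 3.35 CPM in atria with PBS, against 7.41, 7.43 and 6.71 CPM, and was lower at -0.62 (SE 0.20) and -0.95 (SE 0.18). Ifit1, in the same gene cluster on chromosome 19, had 4.12, 2.61 and 5.63 CPM in atria with liraglutide and 3.23, 5.10 and 4.47 CPM in atria with PBS. It did not pass the test, at -0.51 (SE 0.24, adjusted p = 0.113) with liraglutide and -0.16 (SE 0.24, adjusted p = 0.601) with PBS. Gbp6 was lower in every atrial library, with 13.1, 12.5 and 18.4 CPM in atria with liraglutide and 9.68, 16.2 and 10.9 CPM in atria with PBS, which is 4.24-fold (log2 -2.08, SE 0.14, adjusted p = 3.68e-06) and 3.77-fold (log2 -1.92, SE 0.19, adjusted p = 1.91e-05) below non-infarcted LV of the same treatment. Ifi44 was lower at -1.04 (SE 0.32) with liraglutide and -1.24 (SE 0.25) with PBS.

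Of the transcription factors, Stat2 and Irf9 were higher in atria under both treatments. Stat2 had 35.8, 34.5 and 53.4 CPM in atria with liraglutide and 45.8, 41.5 and 37.5 CPM in atria with PBS, each library above all those of non-infarcted LV. Its log2 fold change was 0.38 (SE 0.13, adjusted p = 0.0330) with liraglutide and 0.35 (SE 0.11, adjusted p = 0.0183) with PBS, and that of Irf9 was 0.40 (SE 0.13) and 0.41 (SE 0.10). Irf1 had 26.0, 24.0 and 44.5 CPM in atria with liraglutide and 34.1, 35.8 and 27.0 CPM in atria with PBS, and passed with PBS (0.41, SE 0.12, adjusted p = 0.0127) but not with liraglutide (0.40, SE 0.18, adjusted p = 0.0964). Irf7 had 11.8, 9.03 and 13.3 CPM in atria with liraglutide and 10.7, 12.9 and 11.2 CPM in atria with PBS, and did not pass under either treatment. Oasl2 was higher in atria at 0.79 (SE 0.12) with liraglutide and 1.07 (SE 0.13) with PBS. Zbp1 had 2.67, 1.74 and 4.71 CPM in atria with liraglutide and 2.68, 3.72 and 2.08 CPM in atria with PBS, and was called with PBS alone (1.06, SE 0.31, adjusted p = 0.0135).

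Several genes that were high in infarcted LV did not pass between atria and non-infarcted LV. Bst2 had 18.3, 17.7 and 20.9 CPM in atria with liraglutide and 19.5, 24.4 and 20.3 CPM in atria with PBS. Isg15 had 3.47, 2.61 and 3.43 CPM in atria with liraglutide and 3.86, 4.51 and 3.67 CPM in atria with PBS. Usp18 had 3.32, 2.07 and 3.39 CPM in atria with liraglutide and 2.05, 2.07 and 2.71 CPM in atria with PBS. None of the 3 passed the test, with adjusted p from 0.117 to 0.951. Igtp varied widely, with 25.3, 14.4 and 42.6 CPM in atria with liraglutide and 20.6, 38.5 and 20.8 CPM in atria with PBS, and Mx1 had 0.794, 0.335 and 1.37 CPM and 0.315, 1.38 and 0.479 CPM. In both genes the highest atrial library of a treatment was the one that carried markers of other tissue.

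Without replicate 3 of the atria with liraglutide and replicate 2 of the atria with PBS, 6 genes were higher and 13 lower with liraglutide, where 57.8% of all genes were called in either direction, and 8 were higher and 10 lower with PBS, where 47.0% were. Of the called genes 13 of 14 with liraglutide and 17 of 19 with PBS were shared, Xaf1 being lost under both treatments (log2 fold change -0.45 and -0.49) and Zbp1 with PBS (0.82). Without replicate 1 of the non-infarcted LV with liraglutide, 4 genes were higher and 5 lower with liraglutide, where 37.1% of all genes were called, against 47.5% with all libraries. In that treatment, Ifi44 and Xaf1 each lost the call in 5 of the 6 omissions of 1 library, Ifit3 in 4, and Stat2 and Irf9 without any 1 of the 3 non-infarcted libraries (adjusted p 0.0508 to 0.156 over these). With PBS, Stat2 was lost without atrial replicate 1 or non-infarcted replicate 2 (0.0583 and 0.0858), Xaf1 and Zbp1 without atrial replicate 2 or non-infarcted replicate 2, and Irf1 without non-infarcted replicate 2 (0.0564).

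Immune and muscle markers also differed between atria and non-infarcted LV. Among all genes, 24.6% were called higher and 22.9% lower with liraglutide, and 26.3% and 25.6% with PBS. Neutrophil markers summed to 191 to 563 CPM in atria with liraglutide and 384 to 1125 CPM in atria with PBS, against 66.3 to 90.0 CPM and 64.6 to 107 CPM in non-infarcted LV, with 7 and 9 of 9 tested called higher. Recruited monocyte and macrophage markers were called higher in 7 of 9 under both treatments, at 476 to 757 CPM in atria with liraglutide and 523 to 1126 CPM in atria with PBS. Endothelial markers, which sum to 983 to 1098 CPM and 1071 to 1112 CPM, had 2 called higher and 2 lower of 8 with liraglutide, and 2 higher and 5 lower with PBS. Their part in the differences of the interferon-stimulated genes was not tested.

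Infarcted LV was also set against atria. With liraglutide 25 of 35 genes were higher in infarcted LV and 1 lower, where 21.2% of all 13457 genes were called higher and 22.1% lower. With PBS 26 of 35 were higher and 2 lower, where 26.1% of all 13249 genes were called higher and 26.2% lower. The median log2 fold change was 1.06 with liraglutide and 1.01 with PBS, against -0.016 and -0.017 over all genes, and 24 genes were called higher under both treatments. Cxcl9 was 12.01-fold higher with liraglutide (log2 3.59, SE 0.37, adjusted p = 6.65e-05) and 11.3-fold higher with PBS (log2 3.50, SE 0.26, adjusted p = 3.87e-07). Rsad2 was 8.30-fold higher with liraglutide (log2 3.05, SE 0.23, adjusted p = 1.20e-05) and 8.47-fold higher with PBS (log2 3.08, SE 0.17, adjusted p = 4.16e-08). Cxcl10 did not pass, at 0.65 (SE 0.45, adjusted p = 0.281) with liraglutide and -0.40 (SE 0.29, adjusted p = 0.273) with PBS, and neither did Gbp2, at 0.19 (SE 0.21) and -0.27 (SE 0.15). Oas3 was lower in infarcted LV at -1.78 (SE 0.50, adjusted p = 0.0155) with liraglutide and -1.84 (SE 0.67, adjusted p = 0.0479) with PBS, and Oasl2 with PBS (-0.39, SE 0.12, adjusted p = 0.0182). The estimate of Oas3 with PBS ran from -3.02 without infarcted replicate 3, the library at 3.27 CPM, to -1.32 without infarcted replicate 2. Endothelial markers summed to 1801 to 2220 CPM in infarcted LV with liraglutide and 1974 to 2152 CPM with PBS, against 983 to 1098 CPM and 1071 to 1112 CPM in atria, with 6 of 8 called higher and 1 lower under both treatments. Fibroblast markers were called higher in 5 of 7 with liraglutide and 6 of 7 with PBS. Neutrophil markers were lower in sum, at 129 to 181 CPM in infarcted LV with liraglutide and 75.9 to 206 CPM with PBS, against 191 to 563 CPM and 384 to 1125 CPM in atria, with 1 and 5 of 9 called lower. Recruited monocyte and macrophage markers had 2 higher and 2 lower of 9 with liraglutide and 1 higher and 5 lower with PBS, though their summed level was higher in infarcted LV. The part of these markers' cells in the differences was not tested. The comparisons of infarcted LV with atria share their libraries with those above and are no separate evidence.

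Without both atrial libraries that carried other tissue, 26 genes were higher and 1 lower with liraglutide, where 53.3% of all genes were called, and 26 were higher and 0 lower with PBS, where 49.5% were. Oas3 and Oasl2 with PBS lost their calls then (log2 fold change -1.74 and -0.33). Oas3 with PBS was also lost without atrial replicate 3 or infarcted replicate 1 or 2, and Oasl2 without infarcted replicate 3. With liraglutide, Oas3 was lost without infarcted replicate 1 or 3 (adjusted p 0.0556 and 0.0681), Isg15 without infarcted replicate 3 (0.0591), and Irgm1 without atrial replicate 1 or 2 or infarcted replicate 1 or 3 (0.0629 to 0.123). With PBS, Igtp was lost without atrial replicate 1 or 3 or any infarcted replicate (0.103 to 0.142) and Irf9 without infarcted replicate 2 (0.0856). The signs of these log2 fold changes were kept.

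Liraglutide was compared with PBS in each region to ask whether the drug changed the response. No interferon-stimulated gene passed in any region. In infarcted LV 0 of 34 were called by edgeR, where 0% of all 12988 genes were, in atria 0 of 36, where 0.00739% of all 13530 genes (1 gene) were, and in non-infarcted LV 0 of 34, where 0% of all 12919 genes were. At an unadjusted p under 0.05 there were 1 in infarcted LV, 2 in atria and 3 in non-infarcted LV, where 5.24, 6.87 and 4.34% of all genes were. DESeq2 also called 0 in each region, where it called 0.0308% of all genes in infarcted LV, 0.872% in atria and 0.0155% in non-infarcted LV. Voom with sample quality weights called 0 as well, where it called 0% of all genes in infarcted LV, 0.554% in atria and 0% in non-infarcted LV. The median log2 fold change was 0.037 in infarcted LV, 0.070 in atria and 0.090 in non-infarcted LV, with 21 of 34, 23 of 36 and 25 of 34 genes above 0. In atria this median fell below 0 without both libraries that carried other tissue (-0.062), without liraglutide replicate 3 (-0.17) and with voom (-0.20). In infarcted LV it did so without liraglutide replicate 3 (-0.096), without PBS replicate 1 (-0.016) and with voom (-0.042). Under every other alternative it was above 0, and in non-infarcted LV it ran from 0.054 to 0.104. In the main fit the lowest and highest estimates were -0.29 and 0.59 in infarcted LV, -1.10 and 0.49 in atria, and -0.69 and 0.51 in non-infarcted LV. The groups did not overlap for 2 genes in infarcted LV, where 9.69% of all genes did not, for 2 in atria, where 14.9% did not, and for 6 in non-infarcted LV, where 8.96% did not. Missing the threshold with 3 libraries a group does not show that levels were equal.

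**Figure D5:**
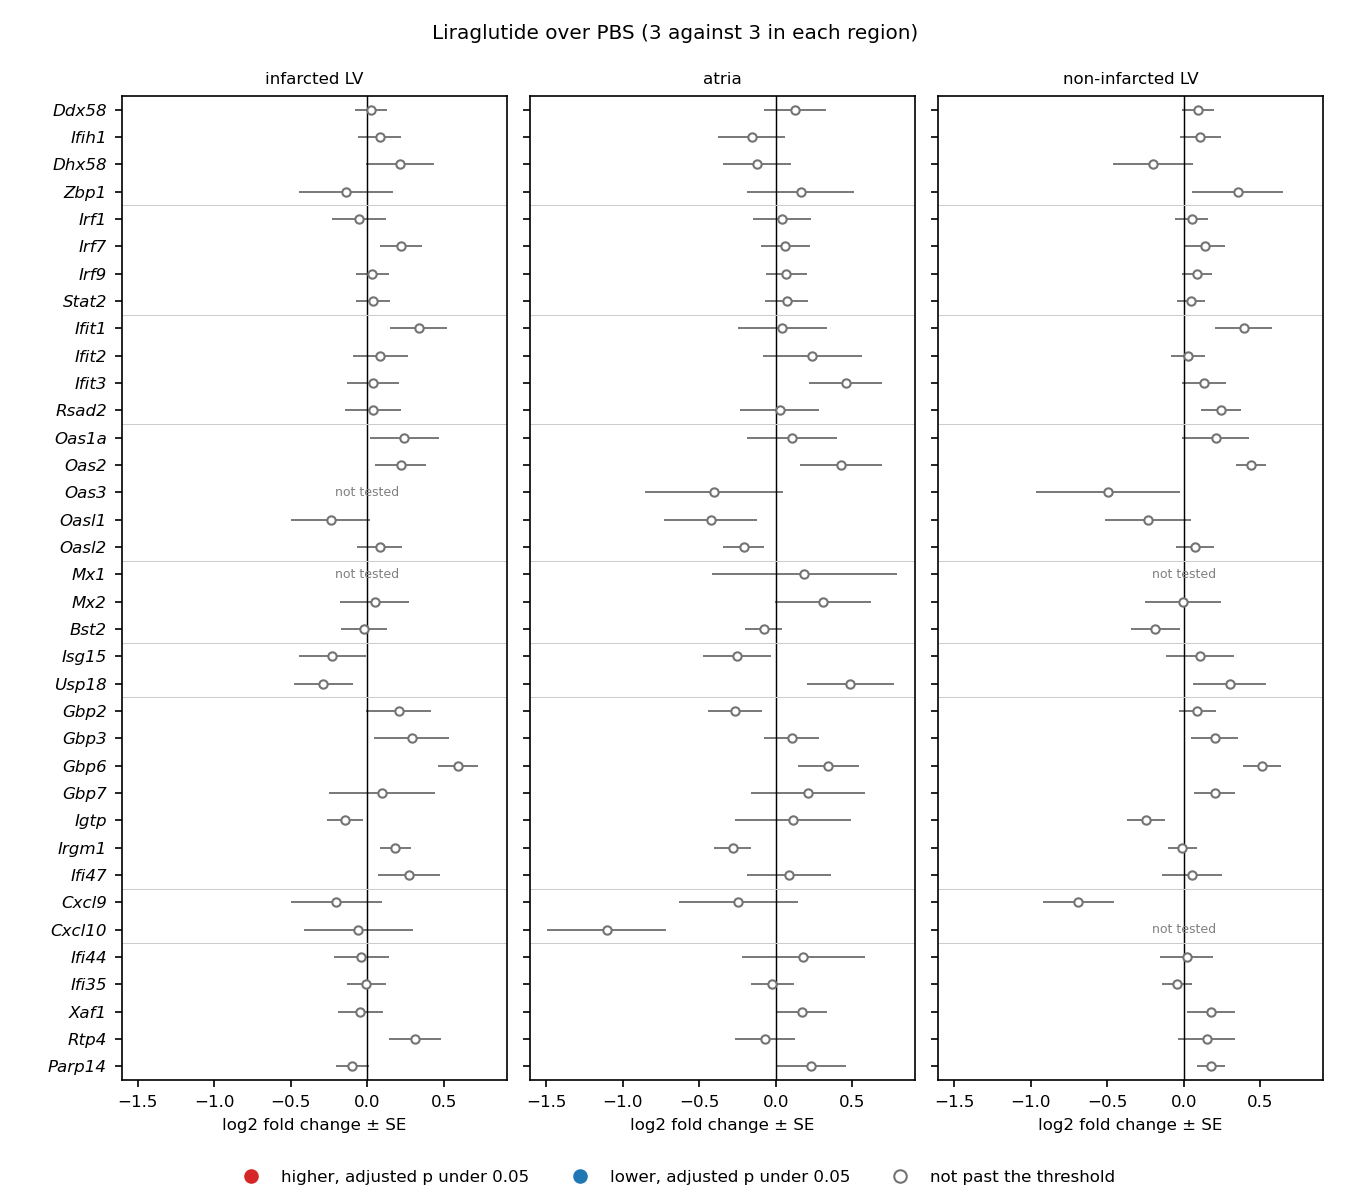
Log2 fold change of liraglutide over PBS for each gene in infarcted LV, atria and non-infarcted LV, as edgeR estimates with 1 standard error from 3 against 3 libraries. All points are open, since none passes an adjusted p of 0.05, and the estimates lie between -1.10 (Cxcl10 in atria) and 0.59 (Gbp6 in infarcted LV).

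Gbp6 had the smallest p in infarcted LV. It had 58.1, 46.7 and 51.6 CPM with liraglutide, against 27.2, 37.1 and 42.5 CPM with PBS in infarcted LV, and 54.2, 62.7 and 68.8 CPM with liraglutide, against 38.6, 41.5 and 48.8 CPM with PBS in non-infarcted LV. In both LV regions the treatments did not overlap, while in atria they did, with 13.1, 12.5 and 18.4 CPM with liraglutide, against 9.68, 16.2 and 10.9 CPM with PBS. The log2 fold change was 0.59 (SE 0.13, unadjusted p = 0.000429, adjusted p = 0.404) in infarcted LV, 0.34 (SE 0.20, adjusted p = 0.808) in atria and 0.51 (SE 0.12, unadjusted p = 0.00142, adjusted p = 0.999) in non-infarcted LV. When no filter on low counts was applied, the fit called Gbp6 in infarcted LV, at 0.60 with an adjusted p of 0.00293, and this was the 1 such call.

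Oas2 had the smallest p in non-infarcted LV, with 32.3, 30.9 and 35.9 CPM with liraglutide, against 24.7, 25.2 and 22.1 CPM with PBS. Its log2 fold change was 0.44 (SE 0.097, unadjusted p = 0.00053, adjusted p = 0.999) there, 0.22 (SE 0.17) in infarcted LV and 0.43 (SE 0.27) in atria. Cxcl9 in non-infarcted LV (-0.69, SE 0.23) overlapped by library, and Ifit1 (0.39, SE 0.19), Igtp (-0.25, SE 0.13) and Parp14 (0.18, SE 0.093) complete the 6 with the smallest p there. In atria Cxcl10 led, with 3.97, 2.81 and 1.92 CPM with liraglutide, against 3.86, 8.60 and 7.66 CPM with PBS. Its log2 fold change was -1.10 (SE 0.39, unadjusted p = 0.0208, adjusted p = 0.609), and the ranges overlapped. Irgm1 (-0.28, SE 0.12), Ifit3 (0.46, SE 0.24), Usp18 (0.49, SE 0.28), Gbp6 and Oasl2 (-0.21, SE 0.13) followed. In infarcted LV the next genes were Rtp4 (0.31, SE 0.17), Ifit1 (0.33, SE 0.19), Irgm1 (0.18, SE 0.10), Irf7 (0.22, SE 0.14) and Usp18 (-0.29, SE 0.19).

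The effect of liraglutide was not shown to differ between regions. Tested as a difference of effects in 1 fit of 18 libraries, 0 of 36 genes passed for infarcted minus non-infarcted LV, for atria minus non-infarcted LV and for atria minus infarcted LV, and 0% of all 13920 genes passed in each. At an unadjusted p under 0.05 the counts were 0, 0 and 2, the 2 being Usp18 (0.81, SE 0.34) and Irgm1 (-0.45, SE 0.14) for atria minus infarcted LV, with adjusted p of 0.702 and 0.511. The smallest adjusted p over the 36 genes was 0.511.

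Libraries of 1 group differed from each other in CPM across most of the 36 genes at once. How often each library was highest or lowest over all genes was not computed. The counts below are therefore not read as a trait of these genes. In infarcted LV with liraglutide, replicate 3 was the highest of its group in 33 of 36 genes and replicate 2 the lowest in 31, with summed levels of 1114 and 728 CPM. In atria with liraglutide, replicate 3 was the highest in 30 and replicate 2 the lowest in 31, with 571 and 343 CPM. In atria with PBS, replicate 2 was the highest in 27 and replicate 1 the lowest in 23. The highest library of each atrial group was the one that carried markers of other tissue, and the part of that tissue was not tested. In infarcted LV with PBS replicate 3 was the highest in 23 and replicate 1 the lowest in 22. The non-infarcted libraries were closest to each other, with no library of a group highest in more than 17 genes.

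The upstream pathway was followed through genes listed apart from the 36. The interferons themselves were near the detection limit. Ifna1, Ifna2, Ifna4, Ifnk, Ifne, Ifnl2 and Ifnl3 were at 0 in all 18 libraries, which allows at most 0.137 to 0.701 CPM in a library, and Ifnb1 was above 0 in 1 library, at 0.0834 CPM in non-infarcted LV with liraglutide. Ifng, the gene of interferon gamma, had 0.0922, 0 and 0.122 CPM in infarcted LV with liraglutide, 0, 0.279 and 0.234 CPM in infarcted LV with PBS, 0, 0.0669 and 0 CPM in atria with liraglutide, and 0 in the other 3 groups. At this depth no difference in the interferons could be detected.

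Receptor subunits were well measured. In infarcted against non-infarcted LV, 3 of 6 tested genes of the receptor and ligand list were higher and 1 lower under both treatments. Of all genes, 27.3% were called higher and 22.4% lower with liraglutide, and 25.7% and 21.7% with PBS. Ifnar2 was higher at 0.53 (SE 0.10) with liraglutide and 0.48 (SE 0.092) with PBS, Ifngr1 at 0.40 (SE 0.085) and 0.44 (SE 0.090), and Ifnar1 at 0.38 (SE 0.11) and 0.48 (SE 0.10), while Il10rb, shared with the receptors of interferon lambda and interleukin 10, was lower at -0.22 (SE 0.080) and -0.23 (SE 0.073). In atria against non-infarcted LV, Ifngr2, the second chain of the interferon gamma receptor, stood out. It had 57.1, 54.7 and 69.4 CPM in atria with liraglutide, against 135, 139 and 134 CPM in non-infarcted LV, and 75.7, 71.2 and 67.5 CPM in atria with PBS, against 154, 154 and 134 CPM. It was lower at -1.18 (SE 0.088, adjusted p = 6.88e-06) with liraglutide and -1.17 (SE 0.088, adjusted p = 1.52e-06) with PBS, while Ifnar2 was higher at 0.42 (SE 0.10) and 0.58 (SE 0.11).

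Of the JAK, STAT and feedback genes, 12 of 14 were higher in infarcted LV and 0 lower with liraglutide, and 11 were higher and 1 lower with PBS. The shares of all genes were 27.3% higher and 22.4% lower with liraglutide, and 25.7% and 21.7% with PBS. Irf8, a factor of myeloid cells, was higher at 1.82 (SE 0.14) with liraglutide and 1.83 (SE 0.14) with PBS. Stat3 was higher at 0.65 (SE 0.087) and 0.58 (SE 0.079), and Socs3, a feedback inhibitor that mainly restrains STAT3, was higher at 3.49 (SE 0.12) with liraglutide and 3.13 (SE 0.27, adjusted p = 0.000527) with PBS. In atria against non-infarcted LV, 7 of 14 were higher and 1 lower with liraglutide, and 10 were higher and 1 lower with PBS. There the shares of all genes were 24.6% higher and 22.9% lower with liraglutide, and 26.3% and 25.6% with PBS. Of the nucleic acid sensing genes, 10 of 15 tested were higher in infarcted than in non-infarcted LV and 1 lower with liraglutide. With PBS 7 were higher and 1 lower, where 25.7% of all genes were higher, against 27.3% with liraglutide. Sting1, which relays the cGAS signal, was higher at 1.49 (SE 0.14) with liraglutide and 1.24 (SE 0.15) with PBS, and Mavs, the mitochondrial adaptor of RIG-I and MDA5, was the lower one at -0.63 (SE 0.096) and -0.52 (SE 0.092). Both kept these directions in atria against non-infarcted LV, Sting1 at 1.20 (SE 0.10) and 0.91 (SE 0.14), and Mavs at -1.002 (SE 0.12) and -0.88 (SE 0.091).

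A second list of 60 interferon-stimulated genes outside the 36 gave 47 higher and 1 lower of 56 tested in infarcted against non-infarcted LV with liraglutide, and 40 higher and 1 lower of 55 with PBS, where 27.3 and 25.7% of all genes were higher. The membrane protein genes Ifitm3 and Ifitm2, which hinder viral fusion, were higher at 1.32 (SE 0.095) and 1.11 (SE 0.082) with liraglutide and 1.11 (SE 0.087) and 0.99 (SE 0.081) with PBS. In atria against non-infarcted LV it gave 13 higher and 10 lower of 55 with liraglutide, where 24.6% of all genes were higher and 22.9% lower, and 14 higher and 13 lower of 56 with PBS, where 26.3% and 25.6% were, so that its shares did not exceed those of all genes. Ifitm3 and Ifitm2 were higher in atria at 1.10 (SE 0.10) and 1.25 (SE 0.098) with liraglutide, whereas Cmpk2, a mitochondrial nucleotide kinase, was lower with PBS at -1.65 (SE 0.23). Cmpk2 was higher in infarcted LV than in atria at 2.60 (SE 0.24) with liraglutide and 2.97 (SE 0.19) with PBS. In none of the 4 pathway lists did edgeR call a gene for liraglutide against PBS in any region, where it called 0 to 0.00739% of all genes.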

How the data were processed

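Polyadenylated RNA from 18 heart samples was sequenced, after TRIzol extraction and a stranded TruSeq preparation per the labels' protocols. The table deposited by the authors holds raw counts per gene symbol, all whole numbers. STAR 2.7.9a, the mm10 build and DESeq2 without a version are named, with no roles, per the submitters' processing notes. Which counter, strand setting and gene annotation made the table is not given in the sources used here, so antisense and near-identical genes may share reads.

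Groups are region and treatment, as the labels give them. The labels call the samples of a group biological replicates but name no animals, so p-values measure the spread between these samples. The 18 pairs of libraries within groups differed with a chi-square of 2.65 to 62.89 per degree of freedom, far over sampling noise.

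The main test was that of edgeR 4.0.16 in R 4.3.3, run on the 6 libraries of a comparison (filterByExpr, TMM factors, robust quasi-likelihood test, Benjamini-Hochberg adjustment over all tested genes, threshold 0.05). The standard error of a log2 fold change was taken as its size divided by the root of its F value. Printed levels are CPM of the library total. Differences of the liraglutide effect come from 1 fit of 18 libraries. The fits were tested on simulated counts with known changes. DESeq2 1.42.0, voom of limma 3.58.1, RLE factors, other filters, a fit of 18 libraries, a replicate block and omission of each library were the alternatives.

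Replicate numbers were taken to pair samples where same-numbered libraries deviated together with a correlation over 0.1 in all 3 pairs. The main test used no block in any comparison. This held for infarcted against non-infarcted LV with liraglutide (0.146, 0.112 and 0.153) and PBS (0.155, 0.162 and 0.153), and for atria against non-infarcted LV with PBS (0.152, 0.115 and 0.173). The rule did not hold in the other comparisons, and a correlation under the cut does not show that samples were unpaired. Between liraglutide and PBS, equal replicate numbers carry different label numbers, so no pairing is given there.

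The 36 genes, their roles and the pathway and marker lists were chosen with earlier results of these data known. Genes are named by role, up to 4 called genes with the smallest p in a comparison or, with none called, the 6 with the smallest p. A further 16 genes are followed by library in every group, and Gbp6 in more detail after its values were seen. Promoter and exon positions are from RefSeq and the annotation on GRCm38.p6.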

Additional observations from a re-analysis of the deposited data

How the results depend on the processing

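The genes followed singly were those called in the main test or, where none was called, those with the smallest p. Of 2599 values of these genes under an alternative, 2496 kept their direction and their side of the threshold. A further 102 lost the call, 1 gained it and 0 changed sign. Between regions only genes already called were followed, so a gain could not be counted there. Uncalled genes were not checked for a change of sign between regions, and their gains show only in the counts of called genes. Liraglutide against PBS called 1 of the 36 genes in infarcted LV without a filter on low counts, and 0 under every other alternative in all 3 regions. Omission of 1 library gave 9 to 19 called genes for atria against non-infarcted LV with liraglutide, the lowest without replicate 1 of the non-infarcted LV, and 15 to 19 with PBS, where 37.1 to 57.8% and 43.7 to 50.8% of all genes were called. It gave 26 to 31 and 27 to 30 for infarcted against non-infarcted LV (42.7 to 46.1% and 36.8 to 46.1% of all genes), 23 to 27 and 25 to 28 for infarcted LV against atria (33.1 to 53.3% and 42.5 to 53.3%), liraglutide before PBS, and 0 for the liraglutide effect and its differences between regions. With the replicate number as a block, 32 and 31 genes were called for infarcted against non-infarcted LV, 26 and 28 for infarcted LV against atria, and 16 and 19 for atria against non-infarcted LV, in the same order. Of all genes the block called 52.1 and 52.6%, 42.5 and 52.9%, and 44.3 and 53.7%. Of the 16, 12 were among the 14 called without the block, and Stat2 (0.37, adjusted p = 0.0567) and Xaf1 (-0.49, adjusted p = 0.0572) were not. In that comparison same-numbered libraries did not pass the correlation rule, which does not show that they were unpaired. The block changed no other call than these, the added atrial ones and Gbp6 with PBS. In infarcted against non-infarcted LV with liraglutide, Gbp6 was not called by DESeq2 (adjusted p = 0.0580), voom (0.0775) or the fit of 18 libraries (0.178). Xaf1 was not called by voom (0.0522) and Gbp7 not by the fit of 18 libraries (0.0628) there. Under both treatments, liraglutide before PBS, DESeq2 did not call Oasl1 (0.058 and 0.0607). The fit of 18 libraries did not call Ifit2 (0.0745 and 0.123), and the fit without a filter did not call Gbp7 (0.0561 and 0.0592). The causes were not tested. Depth limits Mx1, Oas3, the non-infarcted levels of Cxcl10 and the interferons, and with 3 libraries a group small effects of liraglutide can be missed.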

Other observations

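Genes that share sequence with 2 of the 36 were looked at after the values were seen. Gbp10, which shares 43.8% of the 50-base words of Gbp6, had 2.06 to 3.04 CPM in infarcted LV with liraglutide, against 1.21 to 2.34 CPM in infarcted LV with PBS. In non-infarcted LV it had 4.25 to 6.09 CPM with liraglutide, against 1.88 to 3.72 CPM with PBS. In atria it had 0.335 to 0.503 CPM with liraglutide, against 0.160 to 0.637 CPM with PBS. Gbp6 and Gbp10 were thus both lowest in atria, and in non-infarcted LV the treatments did not overlap in either. Since reads may be shared, the 2 genes are not separate observations. Ifit3b, which shares 51.2% of the words of Ifit3, had 3.31 to 4.87 CPM in infarcted LV with liraglutide, against 2.20 to 3.84 CPM in non-infarcted LV with liraglutide. With PBS it had 2.88 to 4.91 CPM in infarcted LV, against 1.2 to 2.16 CPM in non-infarcted LV.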
